A study of Schizosaccharomyces pombe with 2 samples.

Results

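The mug and meu genes of fission yeast (Schizosaccharomyces pombe) were named in screens for transcripts that rise in meiosis, as meiotically upregulated genes and meiotic expression upregulated genes. They were taken here as every gene whose symbol in the reference gene table is mug or meu followed by digits. The table holds 115 such genes. Of these, 110 had a probe among the 5057 gene probes of the arrays, 91 mug and 19 meu genes. The other 5, meu3, meu11, meu16, meu19 and meu20, are long non-coding RNAs with no matched probe and were not analysed here.

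Meiosis in fission yeast begins when starved cells mate and the zygote enters the sexual programme, in which homologous chromosomes pair and recombine, divide and are packed into walled spores. The transcription factor Ste11 starts the programme, the RNA-binding protein Mei2 drives entry into meiosis, and the forkhead factor Mei4 turns on many genes of the middle stage. In growing cells the RNA-binding protein Mmi1 marks a number of meiotic transcripts for destruction by the nuclear exosome. The mug and meu genes share a rise in meiosis and not a single function, and for most of them no role is stated below.

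The tested strain was ESY173, which lacks mga2 (mga2Δ below), and its control was KGY425 (WT below). Mga2 activates transcription and acts in lipid homeostasis. Log-phase cells of both strains, in complete YES medium, spent 1.5 h in an anaerobic chamber, so no value gives a response to oxygen loss, to starvation or to meiosis itself. The titles of the samples give the control as WT. The design text, in contrast, gives WT as sre1D and the mutant as sre1D/mga2D, that is, without the SREBP gene sre1 in either. The sre1 probe was above background on 0 arrays in mga2Δ and on 0 arrays in WT. Mating type, ploidy and the number of isolates behind each strain are not given in the sources used here.

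The data are 2 two-colour arrays with the dyes swapped between them, 1 for each biological replicate, and each array holds 1 mga2Δ and 1 WT sample. Each probe had 3 spots per array, and no spot was saturated. Values are log2 ratios of mga2Δ over WT unless a sentence says log2 signal, each mean is over 2 arrays, and each SD is between them. A log2 signal depends on the probe, so it is compared only between strains and never between genes. The number of arrays limits the precision, and p-values measure only the spread between these arrays, since the labels say no more of the replicates than that they are biological. In mga2Δ the mga2 probe had log2 signals of 5.32 and 6.43, against 12.60 and 12.56 in WT. It was above background in mga2Δ on neither array, and mga2 was at least 85.0-fold lower in mga2Δ (mean log2 ratio −6.70 ± 0.81, limma adjusted p = 1.26e-05). Its call was lost with trend and robust settings.

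Most mug and meu genes differed little between the strains, and a minority rose. Of the 110 genes with a probe, 101 passed the filter on low signals, and 23 of these rose and 4 fell in mga2Δ at a limma adjusted p of 0.05. That is 22.8% raised and 3.96% lowered, beside 18.4% and 10.9% of all 4964 genes tested. The remaining 74 did not pass the test, 43 with a ratio above 0 and 31 with a ratio below 0. In this fit the share raised lay near the share over all genes.

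Ratios of at least 2-fold higher on both arrays were seen in 5 of the 101 genes, 4.95% beside 3.61% of all genes, and 0 genes were 2-fold lower on both arrays, where 0.524% of all genes were. The median ratio of the tested mug and meu genes was 0.12, beside 0.00 for all tested genes, with quartiles of −0.08 and 0.26. It was 0.14 on array 1 and 0.08 on array 2. The median followed the normalization, at −0.07 with the authors' deposited ratios, where that of all genes was −0.10, and at 0.24 when the spike-in RNAs set the centre, where that of all genes was 0.13. Counts of raised and lowered genes also moved, to 39 and 0 under spike-in centring, 24 and 18 in the authors' deposited ratios, and 5 and 0 under median centring in place of loess. Processed signals, which the scanner software had already corrected for background and dye, gave 36 and 9.

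**Figure D1:**
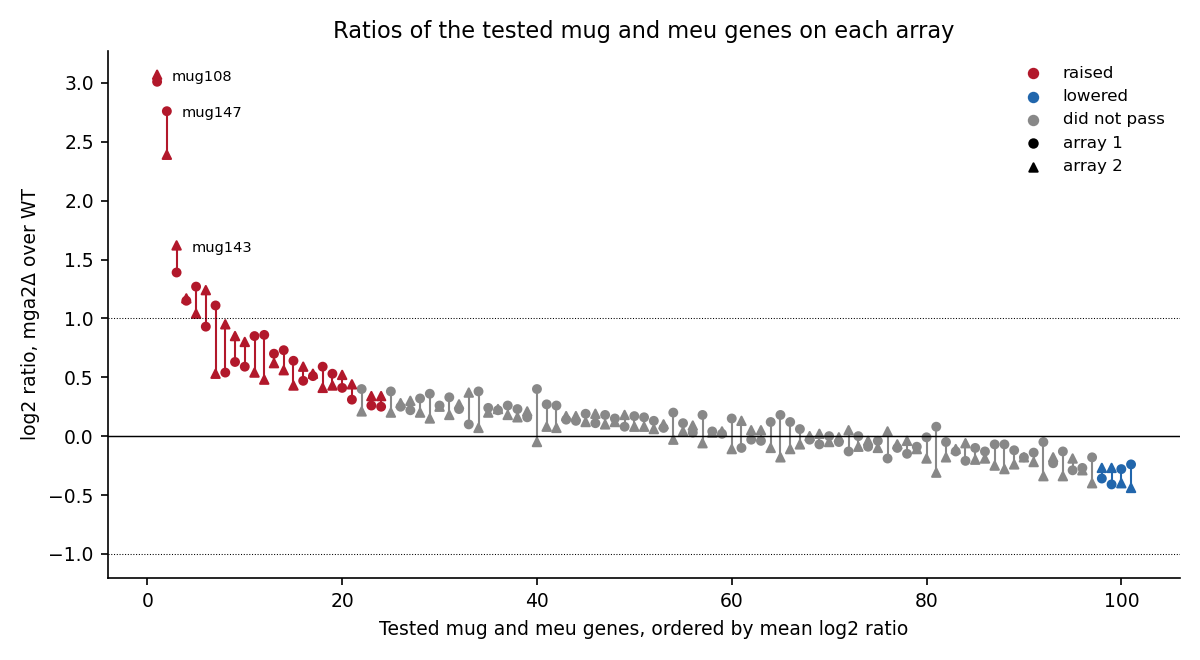
Log2 ratio of mga2Δ over WT (vertical axis) for the 101 tested mug and meu genes in order of their mean (horizontal axis). Circles are array 1 and triangles array 2, joined by a line, and the colour gives the limma call. Dotted lines mark 2-fold. The leading genes mug108 and mug147 stand above 2 on both arrays, and most genes lie close to 0.

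The dye-swapped arrays gave like ratios. Both arrays were above 0 for 56 genes and below 0 for 29, and the sign differed for 16. Over all 4964 tested genes these counts were 1990, 1865 and 1109. Across the 101 genes, which are not independent and share the same 2 RNA pairs, Pearson's r was 0.943 and Spearman's rho 0.861, as a description.

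**Figure D2:**
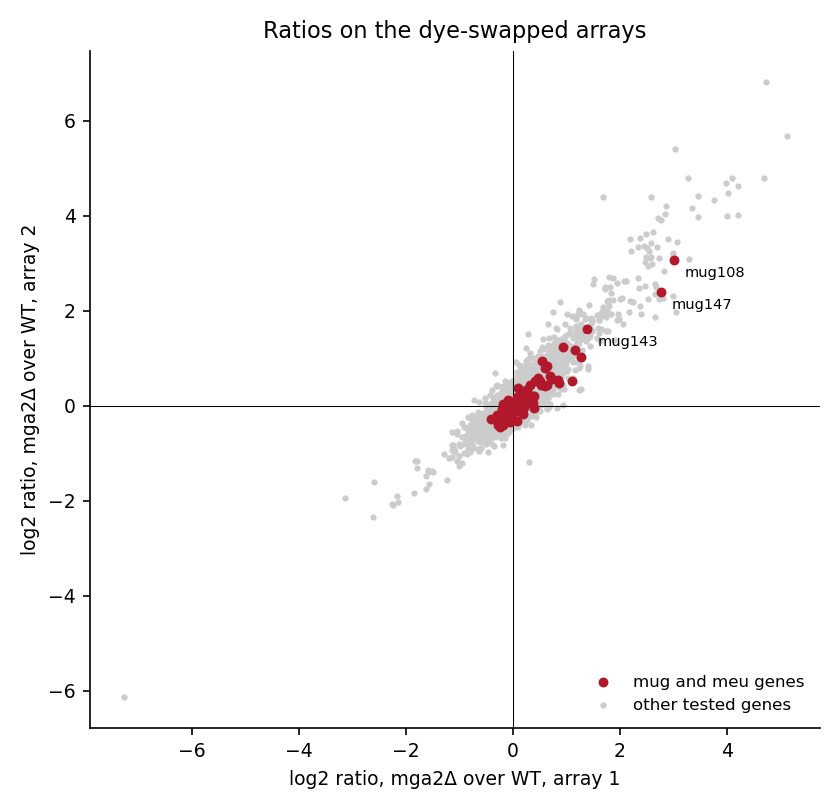
Log2 ratio of mga2Δ over WT on array 1 (horizontal axis) against array 2 (vertical axis), with the 101 tested mug and meu genes in red and the other tested genes in grey. The red points run along the same line as the grey ones, with mug108 at 3.01 and 3.07.

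The largest change was in mug108. Its log2 signals were 9.75 and 9.57 in mga2Δ, against 6.74 and 6.50 in WT. The strains did not overlap, and mug108 was 8.22-fold higher in mga2Δ (mean log2 ratio 3.04 ± 0.043, SD, n = 2 arrays, limma adjusted p = 8.04e-06). The WT signal was above background on both arrays but near the low end of the scale, and the size of the ratio depended on how background was handled, with 4.43 from processed signals and 4.24 from the deposited ratios. No role is stated for this gene here.

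The next gene, mug147, had log2 signals of 9.74 and 9.50 in mga2Δ, against 6.99 and 7.11 in WT. It was 5.95-fold higher (2.57 ± 0.26, limma adjusted p = 2.50e-05, n = 2 arrays), and 3.42 with processed signals. Both strains were again well apart on both arrays. For mug143 the log2 signals were 10.17 and 10.27 in mga2Δ, against 8.78 and 8.65 in WT, a 2.84-fold rise (1.51 ± 0.16, limma adjusted p = 0.000105, n = 2 arrays). Unlike mug108 and mug147, mug143 kept nearly the same ratio with processed signals (1.61).

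Genes with a named function came next. The mug191 gene encodes a predicted alpha-1,6-mannanase, an enzyme of the cell surface, and its log2 signals were 11.21 and 11.26 in mga2Δ, against 10.06 and 10.09 in WT. The arrays differed little, and mug191 rose 2.24-fold (1.16 ± 0.014, limma adjusted p = 0.000214, n = 2 arrays). The adducin domain gene mug14 had log2 signals of 9.44 and 9.60 in mga2Δ, against 8.17 and 8.56 in WT, and rose 2.23-fold (1.15 ± 0.16, limma adjusted p = 0.000333, n = 2 arrays). These 5 genes are the ones at least 2-fold higher on both arrays, and each stayed raised in every alternative fit that gave a test. Just inside that threshold stood mug14, with 1.04 on array 2, and just outside it mug135, with 0.93 on array 1 and 1.24 on array 2 (1.09 ± 0.22, limma adjusted p = 0.000664). The mug135 call was lost with median centring, where its ratio was 1.12.

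**Figure D3:**
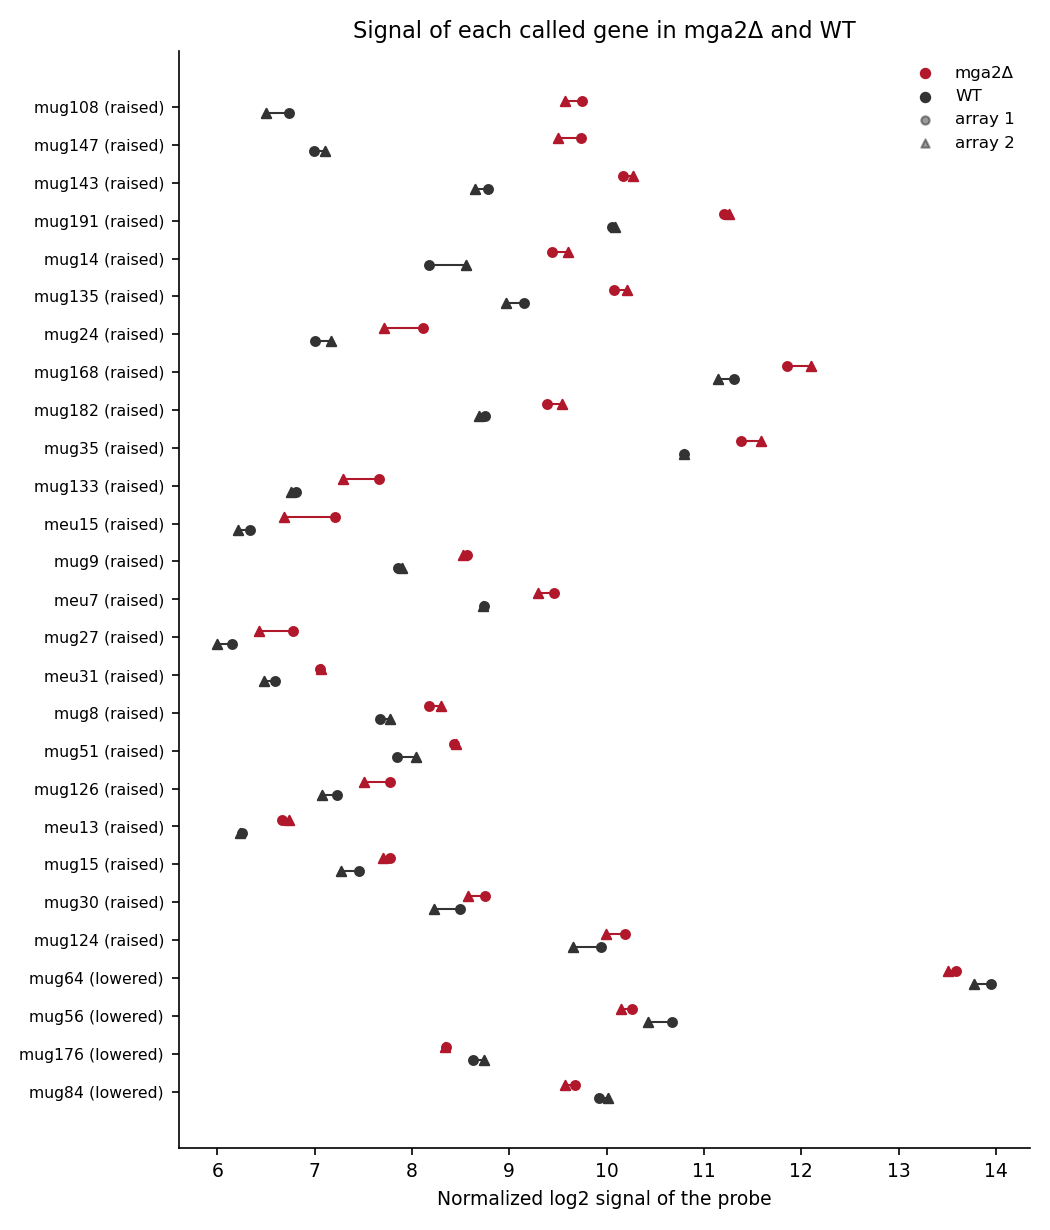
Normalized log2 signal (horizontal axis) of the 23 raised and 4 lowered mug and meu genes, in mga2Δ (red, upper points) and WT (black, lower points). Circles are array 1 and triangles array 2. Signals of mug108 and mug147 lie over 2 units apart between strains, whereas those of the lowered genes lie within 0.5.

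Below these, 17 further genes rose by less. Each class with a stated role holds only 3 to 5 tested genes. Over all tested genes 18.4% were raised and 10.9% lowered. Among genes of RNA binding and processing, mug24, which encodes a protein with RNA recognition motifs, had log2 signals of 8.11 and 7.71 in mga2Δ, against 7.0 and 7.17 in WT. The strains did not overlap, but the arrays differed more than for any other tested mug or meu gene, with ratios of 1.11 and 0.53 (0.82 ± 0.41, limma adjusted p = 0.00725, n = 2 arrays). The call was lost with median centring and when the prior degrees of freedom were halved. The other 4 genes of this class did not pass. They include mug28, an RNA-binding protein of sporulation whose WT signal was below background on both arrays (0.10 ± 0.049), mug174, a coilin-like protein (0.06 ± 0.044), and the splicing protein gene mug161 (0.01).

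Of 4 genes classed as other enzymes, mug14 and mug182 rose. An enzyme activity of mug14 is not stated here. The mug182 gene encodes a member of the NADHX epimerase family, which repairs damaged nicotinamide cofactors. Its log2 signals were 9.39 and 9.54 in mga2Δ, against 8.75 and 8.69 in WT (0.74 ± 0.15, limma adjusted p = 0.00236, n = 2 arrays). The ketopantoate reductase family gene mug72 had ratios of −0.13 and −0.34 and did not pass (adjusted p = 0.119). That value depended on the processing, with −0.52 from processed signals and −0.88 from the deposited ratios, and it passed in both. The predicted glycerate kinase gene mug58 stood at −0.18.

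Of 5 genes of the cell and spore wall, 2 were raised, mug191 and meu7. The meu7 gene encodes an alpha-amylase homologue, Aah4, and had log2 signals of 9.46 and 9.29 in mga2Δ, against 8.74 and 8.73 in WT (0.64 ± 0.12, limma adjusted p = 0.00378, n = 2 arrays). The genes most closely tied to the spore did not pass. They were meu10, a GPI-anchored protein of the ascospore wall (0.07), meu14, which marks the leading edge of the forespore membrane (0.22 ± 0.0077), and the glucosidase family gene meu17 (0.12). The meu14 signal was low, and its ratio was 0.93 with processed signals and 0.41 with the deposited ratios, and it passed in both.

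Of 4 genes of protein kinases and ubiquitin enzymes, 2 were raised. The mug27 gene encodes Slk1, a protein kinase of forespore membrane assembly, with log2 signals of 6.78 and 6.43 in mga2Δ, against 6.15 and 6.0 in WT. On neither array was the WT signal well above background. The difference therefore has only a bound, and mug27 was at least 1.40-fold higher in mga2Δ (measured ratio 0.53 ± 0.15, limma adjusted p = 0.00864). The measured ratio was 2.19 with processed signals. The HECT-type ubiquitin ligase gene mug30 was raised slightly (0.30 ± 0.059, adjusted p = 0.0456) and lost its call with the deposited ratios (0.24), median centring, halved prior degrees of freedom and the separate-channel fit. The predicted ubiquitin ligase gene meu34 had −0.05 and −0.34, and mug105, a deubiquitinating peptidase, had 0.15, and neither passed.

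Among 3 genes of chromosomes and recombination 1 was raised and 1 lowered. The meu13 gene encodes the homologue of Hop2, which helps homologous chromosomes pair, and had log2 signals of 6.66 and 6.74 in mga2Δ, against 6.25 and 6.23 in WT (0.46 ± 0.075, limma adjusted p = 0.0111, n = 2 arrays). The linear element gene mug20 had −0.04 and 0.05 and did not pass. The BRCT domain gene mug176 was lowered (−0.34 ± 0.089, adjusted p = 0.0341). None of 4 genes of membrane transport and membranes passed. They were the amino acid permease gene meu22 (0.26 ± 0.084, adjusted p = 0.0784), the Tea1-interacting secretion gene mug33 (0.26 ± 0.022, adjusted p = 0.0656), the acetate transporter family gene mug86 (−0.18) and the CDC50 family gene mug89 (0.01). With processed signals meu22 stood at 0.59 and passed.

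The remaining 85 genes have no stated role here, and 15 of the 76 tested among them were raised and 3 lowered. That is 19.7% and 3.95%, beside 18.4% and 10.9% of all tested genes. Besides mug108, mug147, mug143 and mug135, the raised ones included mug168, with ratios of 0.54 and 0.95 (0.75 ± 0.30, limma adjusted p = 0.00543, n = 2 arrays), mug35 (0.70 ± 0.15), mug133 (0.69 ± 0.22), meu15 (0.67 ± 0.27) and mug9 (0.66 ± 0.062). The strains did not overlap in signal for any of these 5, which choosing raised genes makes likely. The share of all tested genes without overlap is not given here. In meu15 the WT signal was above background on 1 array, and its ratio was 2.03 with processed signals. Smaller rises were seen in meu31 (0.53), mug8 (0.52), mug51 (0.50), mug126 (0.48), mug15 (0.37) and mug124 (0.30). Of these, mug124 lost its call with processed signals, the deposited ratios, separate channels and halved prior degrees of freedom, mug15 with the deposited ratios and halved prior degrees of freedom, and mug51 with halved prior degrees of freedom. All 6 lost it with median centring.

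The 4 lowered genes changed little. Besides mug176, mug84 had log2 signals of 9.68 and 9.57 in mga2Δ, against 9.92 and 10.01 in WT (−0.34 ± 0.14, limma adjusted p = 0.0388, n = 2 arrays). Ratios were −0.34 ± 0.10 in mug56 and −0.31 ± 0.066 in mug64, with adjusted p-values of 0.0362 and 0.0417. All 4 calls were lost with median centring, spike-in centring and halved prior degrees of freedom. The ratios themselves were −0.31 (mug84), −0.30 (mug176), −0.33 (mug56) and −0.62 (mug64) with median centring and between −0.22 and −0.19 with spike-in centring, and mug64 also lost its call with trend and robust settings. Of the 23 raised genes, 18 lost their call with median centring and 6 with halved prior degrees of freedom.

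Probes of mug and meu genes were often dim. Of the 110, 88 were above background in both strains on both arrays, beside 4892 (96.7%) of all 5057 probes. In 15 genes (13.6%) the probe was above background on more arrays in mga2Δ than in WT, and in 0 genes on fewer. Over all probes these counts were 91 (1.80%) and 3. The 9 genes that did not pass the filter were mug95, mug96, mug112, mug103, mug62, mug93, mug114, meu43 and meu1, with measured ratios between −0.20 and 0.11.

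Dim probes also bear on the tested genes. In 13 of the 101, WT was below background on 1 or both arrays, so on those arrays they entered the test through mga2Δ alone. Of these 13, 2 were raised (mug27 and meu15). Among the 88 genes above background in both strains on both arrays, 21 were raised and 4 lowered. Over all 4964 tested genes, dim ones included, 18.4% were raised and 10.9% lowered. The constant of 50 added in the background step draws the ratios of dim spots towards 0. The median of the 13 was 0.15, against 0.31 with a constant of 16 and 0.64 with processed signals. That of the 88 stayed between 0.10 and 0.12 in these settings. With processed signals 8 of the 13 were raised. The 13 were picked by a WT signal below background beside an mga2Δ signal above it, which makes ratios above 0 likely. The share raised among all tested genes picked in this way is not given here. The counts raised among the 13 and their medians are therefore not read as results about the mug and meu genes.

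**Figure D4:**
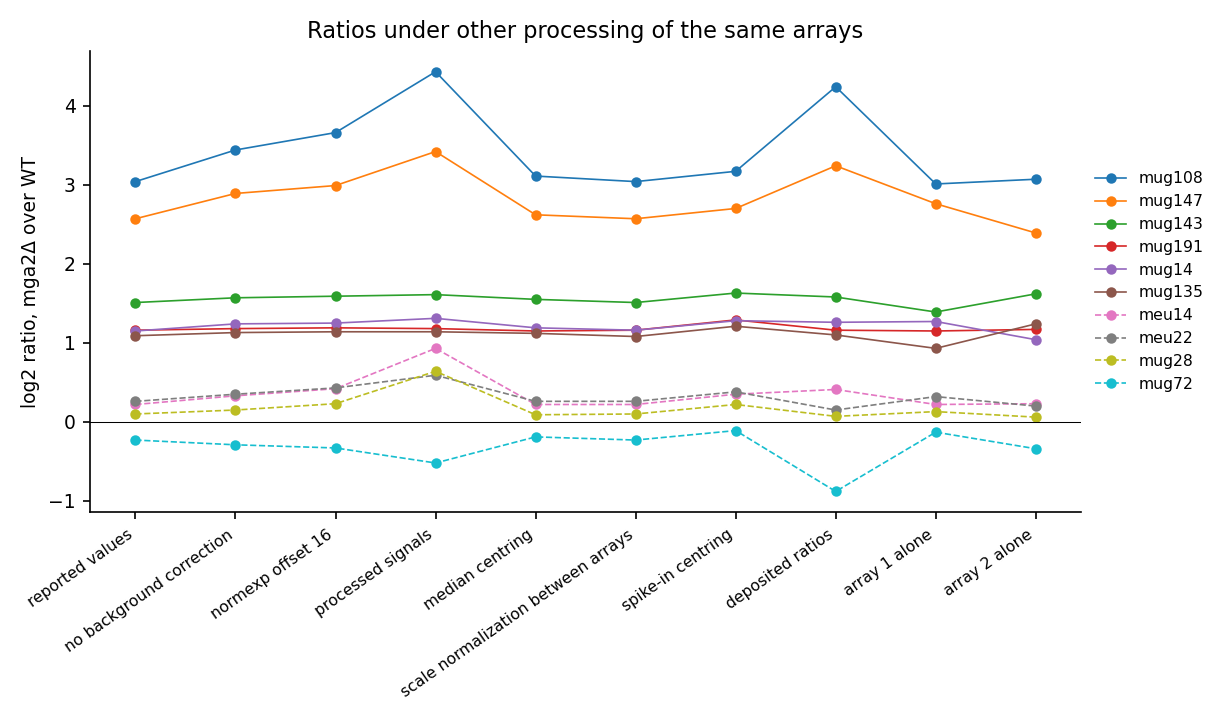
Log2 ratio of mga2Δ over WT (vertical axis) for 10 mug and meu genes under the reported processing and other processing of the same arrays (horizontal axis). Solid lines are the 6 most raised genes and dashed lines 4 genes that did not pass. Ratios of mug143, mug191, mug14 and mug135 hold their level, mug108 reaches 4.43 with processed signals, and meu14, meu22 and mug28 are largest there.

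Raised mug and meu genes were found on every chromosome, with 12 of 48 tested genes on chromosome I, 6 of 28 on II and 5 of 25 on III. Over all tested genes the shares raised were 18.6%, 17% and 20.5%. By the order of genes in the reference table, adjacent protein-coding genes could be set beside them. Over all tested genes 18.4% were raised and 10.9% lowered. Of 42 tested neighbours of raised genes, 12 (28.6%) were raised and 5 lowered, with a median ratio of 0.09. Of 139 neighbours of genes that did not pass, 23 (16.5%) were raised and 17 lowered, with a median of −0.03. Of 8 neighbours of lowered genes, 1 was raised and 2 lowered, with a median of −0.04. Whether neighbours change together was not tested. Each tested neighbour of the 6 most raised genes had a smaller ratio than the gene itself, which choosing the largest ratios makes likely. Of these 9 neighbours, 4 were raised. The raised ones were dbs2 beside mug143 (0.58), SPCC330.03c beside mug135 (0.46), pho841 beside mug14 (0.42) and SPBC56F2.05c beside mug147 (0.36). The others were rrn5 beside mug108 (0.03), pam17 beside mug143 (−0.15), abc3 beside mug14 (0.21), and pit1 and SPAC3C7.04 beside mug191 (0.13 and 0.14). Further down the order some neighbours rose more than the raised gene, such as bfr1 (1.62) beside meu15 (0.67) and SPAC32A11.02c (1.58) beside mug8 (0.52).

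A further 92 probes belong to genes that carry mug or meu as an older name and are now called by a function. Of the 86 tested, 18 were raised and 4 lowered (20.9% and 4.65%, beside 18.4% and 10.9% of all tested genes), with a median of 0.08. The counts were 18 and 16 in the authors' deposited table, 26 and 3 under spike-in centring, 9 and 3 with halved prior degrees of freedom, and 2 and 0 with median centring. Those with the largest ratios, chosen after their values were seen, were tcb2, once mug190, a tricalbin homologue (1.45 ± 0.32, limma adjusted p = 0.000355, n = 2 arrays), oxr1, once mug63 (1.02 ± 0.033, adjusted p = 0.000364), and wtf11, once meu24, of the wtf family (−0.89 ± 0.12, adjusted p = 0.000892). The hexose transporter gene ght6, once meu12, was below background in WT on both arrays, so it has only a bound, at least 2.04-fold higher in mga2Δ (measured ratio 1.08 ± 0.45, limma adjusted p = 0.00301). The measured ght6 ratio was 4.02 with processed signals, and its call was lost with median centring. The outer spore coat gene isp3, once meu4, belongs here too (0.93 ± 0.34, adjusted p = 0.00296).

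The wider sexual programme was described with 5 lists, whose counts stand beside the 18.4% raised and 10.9% lowered over all tested genes. Among them 16 of the 97 genes with a probe carry mug or meu as an older name, so the lists and that group are not separate. Of 16 tested meiotic regulators, 5 were raised and 1 lowered, with a median of 0.14. Among the raised ones, WT was above background on 0 arrays for rem1 and on 1 for mei3. Where WT was below background, these genes entered the test through mga2Δ alone. For rem1 there is only a bound, at least 1.24-fold higher in mga2Δ (limma adjusted p = 0.0475). The largest rise was in atf21, an ATF/CREB family factor, with 2.46 and 2.52 (2.49 ± 0.039, limma adjusted p = 1.26e-05, n = 2 arrays), and 4.42 with processed signals. The transcription factor gene ste11 had 0.52 and 1.05 (0.79 ± 0.38) and mei2 had 0.32 and 1.12 (0.72 ± 0.57, limma adjusted p = 0.0262), with arrays far apart, and the mei2 call was lost with median centring, halved prior degrees of freedom, and trend and robust settings. The lowered member was spo6, a regulatory subunit of the Spo4 kinase (−2.09 ± 0.085). The forkhead factor gene mei4 had 0.32 and 0.12 and did not pass (adjusted p = 0.132), though mei4 passed with an offset of 16, processed signals, spike-in centring, and trend and robust settings (0.22 to 0.38).

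Of 20 tested genes of meiotic prophase and recombination, 4 were raised and 0 lowered, with a median of 0.09. They were rec10, of the chromosome axes (1.23 ± 0.087), dmc1, the meiotic recombinase (0.60 ± 0.18), rec6 (0.47 ± 0.090) and kms1 (0.31 ± 0.058, limma adjusted p = 0.0433). The kms1 call was lost with processed signals, median centring, halved prior degrees of freedom and the authors' table. Genes of the double-strand break step such as rec12 (0.12), rec15 (−0.01) and rec24 (−0.03) did not pass, the last 2 with a WT signal below background on both arrays, and 6 further genes of the list were not tested, 5 with dim probes and mcp6 with no value on array 2. With processed signals rec15 stood at 0.87 and passed.

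Sporulation and spore wall genes were raised in 7 and lowered in 0 of 23 tested (median 0.20), led by isp6, a vacuolar serine protease (1.71 ± 0.14, limma adjusted p = 5.92e-05), isp3, chs1, a chitin synthase (0.51 ± 0.24), and mok13, an alpha-glucan synthase homologue (0.44 ± 0.16). Mating response genes, which mark cells entering the sexual cycle, were raised in 6 and lowered in 2 of 20 (median 0.19). The raised byr1, a MAP kinase kinase (0.60 ± 0.49), fus1, a formin of cell fusion (0.49 ± 0.025), and gpa1, a G protein alpha subunit (0.44 ± 0.032), stood beside the lowered rgs1, a regulator of that G protein (−0.56 ± 0.23). The pheromone genes mfm1, mfm2 and mfm3 had ratios of 0.06, 0.20 and 0.05 and did not pass. With the deposited ratios mfm1 stood at −0.35 and passed, and with spike-in centring mfm2 passed at 0.32. All 20 mating response genes were above background in both strains. In RNA of a whole culture, a few cells in the sexual cycle and a small change in every cell cannot be told apart, and the part of such cells in the mug and meu ratios was not tested.

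Of 10 tested genes of meiotic mRNA elimination, 0 were raised and 1 was lowered, with a median of −0.05. The lowered one was mmi1 itself, with −0.41 and −0.47 (−0.44 ± 0.039, limma adjusted p = 0.0127, n = 2 arrays), and its call was lost with median centring and halved prior degrees of freedom. The exosome subunit gene rrp6 (−0.18 ± 0.22), red5 (0.21 ± 0.31) and pir2, the Ars2 homologue (0.30 ± 0.17, adjusted p = 0.0666), did not pass. Medians of the lists followed the normalization too. With spike-in centring they ran from 0.07 for mRNA elimination to 0.32 for sporulation, and with the authors' deposited ratios from −0.13 for mRNA elimination to 0.17 for sporulation, where that of prophase and recombination was −0.04. The counts moved as well. With the deposited ratios 5 regulators were raised and 4 lowered, 3 and 4 genes of prophase and recombination, 6 and 2 of sporulation, 4 and 3 of mating response, and 0 and 1 of mRNA elimination. With halved prior degrees of freedom the counts in the same order were 2 and 1, 2 and 0, 2 and 0, 1 and 0, and 0 and 0. With spike-in centring they were 7 and 1, 6 and 0, 12 and 0, 10 and 1, and 2 and 1. Shares over all tested genes in these settings are not given here, so the counts are not read as results about the lists. The median of genes with an older mug or meu name was 0.21 under spike-in centring and −0.06 in the deposited table. With median centring, the 5 lists together held 3 raised genes, atf21, rec10 and isp6, and 1 lowered gene, spo6.

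**Figure D5:**
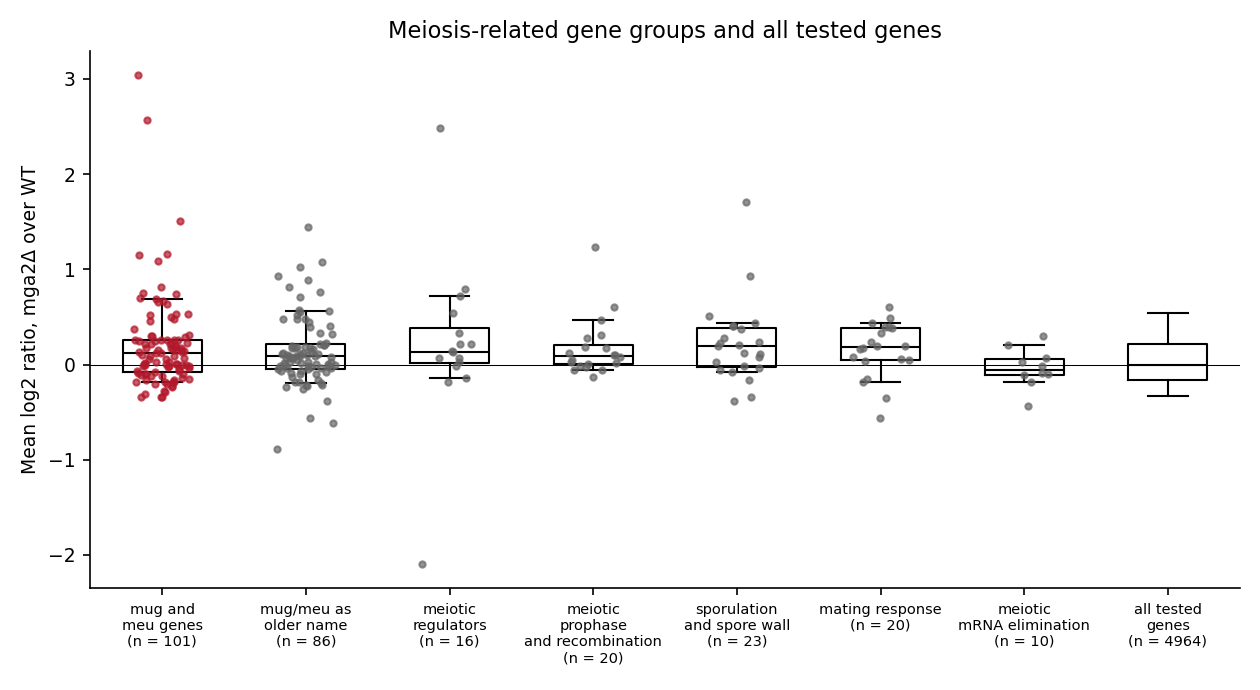
Mean log2 ratio of mga2Δ over WT (vertical axis) for the mug and meu genes, genes with such an older name, the 5 lists and all tested genes (horizontal axis, with the number tested). Points are genes, except for all tested genes, and boxes give the median and quartiles with whiskers to the outer deciles. Medians lie between −0.05 and 0.20 with this normalization, where that of the mug and meu genes is 0.12, and all groups overlap widely.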

How the data were processed

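Spike-in RNAs were added to 400 ng of RNA before amplification with oligo-dT primers and cyanine labelling, per the labels' protocols. Agilent Feature Extraction 10.5.1.1 (protocol GE2_105_Dec08) made the spot values, per the file headers. Each deposited scanner file gives median spot and local background intensity, processed signals and a log10 ratio of red over green. A value table from the authors holds log2 ratios that run as mga2Δ over WT on both arrays (correlation with the scanner ratios 0.981 and 0.982) with medians of −0.0782 and −0.115. How that table was normalized is not given in the sources used, and Partek is named in the submitters' processing notes.

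Background was corrected by normexp (offset 50), each array was normalized by loess, control and outlier spots had weight 0 and outlier spots (3.57% and 3.36%) were left out, in limma 3.58.1 under R 4.3.3. A probe was tested with 2 or more spots well above background in either channel on each array (4964 of 5057). Ratios were tested against 0 with lmFit and eBayes (1 residual and 5.62 prior degrees of freedom), two-sided, with Benjamini-Hochberg adjustment over all tested genes. Log2 signals came from loess and Aquantile normalization. A probe is called above background where at least 2 of its spots are, and a bound sets the brighter strain's mean against the lowest signal above background in the other. The steps were tested on simulated spots.

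Probes matched the RefSeq gene table of assembly ASM294v3 by locus tag (5021) or alias (3), and 33 did not match. The table has no product text, so roles are general knowledge. Genes named are mga2, up to 15 raised and 10 lowered called members by size of mean ratio, genes 2-fold changed on both arrays, up to 3 genes per role class and 4 per list, and the rest of the called genes. Genes with an older mug or meu name, neighbours and further list members were named after values were seen. Members and lists were chosen with earlier results of these data known. In the lists, hrs1, mcp5 and ars2 were read as mcp6, num1 and pir2, and erh1 had no matched probe. Promoter sequences were not analysed here. Alternatives tried are named in the closing section. Tables were made with Python 3.11.15 and pandas 2.3.3.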

Additional observations from a re-analysis of the deposited data

How the results depend on the processing

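The count of raised mug and meu genes, 23, lay between 17 and 34 with no background correction, an offset of 16, scale normalization, no filter, a filter on both channels, the deposited ratios, trend and robust settings, halved prior degrees of freedom (2.81 in place of 5.62), an adjusted p of 0.10 and separate channels. It was 36 with processed signals, 5 with median centring and 39 with spike-in centring. In that last setting all ratios of an array were shifted by its spike-in centre, and the estimated prior degrees of freedom were infinite. All 23 were also raised with spike-in centring. Over all tested genes 915 were raised in the reported fit, 886 with processed signals and 146 with median centring. With no background correction 31 mug and meu genes and 994 of all tested genes were raised. With an offset of 16 these counts were 34 and 951. The count of lowered mug and meu genes, 4, was 7 with no background correction, with an offset of 16 and at an adjusted p of 0.10. It was 9 with processed signals, 18 with the deposited ratios, and 0 with median centring, spike-in centring and halved prior degrees of freedom. Over all tested genes 541 were lowered in the reported fit, 812 with processed signals and 26 with median centring. Where no count over all tested genes is given, the member count is not read as a result about the members. The mug and meu genes 2-fold higher on both arrays numbered 11 with processed signals and 9 with the deposited ratios, in place of 5. Over all tested genes processed signals gave 220 in place of 179. On either array alone 6 mug and meu genes were 2-fold higher, and 0 were 2-fold lower in any setting. The median of 0.12 was 0.17 with processed signals, 0.24 with spike-in centring and −0.07 with the deposited ratios, and 0.08 to 0.14 on each array alone. The cause of these shifts was not tested. Of the named genes, run under the same alternatives, 2 turned sign with a call, both not called in the reported fit, rec15 (−0.01, and 0.87 with processed signals) and mfm1 (0.06, and −0.35 with the deposited ratios). The reported fit is already paired, because each ratio sets the strains of 1 replicate against each other on 1 array. A single array leaves no residual degree of freedom, so that counts of calls without a replicate could not be had. Signals near background limit the size of ratios in dim genes.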
